A study of Arabidopsis thaliana with 30 samples.

Results

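The genes described are 10 stress-related NAC transcription factors of Arabidopsis thaliana, chosen by their locus identifiers from 5 deposited tables that compare seedlings given the respiratory inhibitor antimycin A with mock-treated seedlings. They are NAC013 (AT1G32870), NAC053 (AT3G10500), NAC078 (AT5G04410), ATAF1 (AT1G01720), ATAF2 (AT5G08790), NAC032 (AT1G77450), NAC102 (AT5G63790), NAC019 (AT1G52890), NAC055 (AT3G15500) and RD26 (AT4G27410), of 6297 genes that stand in any of the tables. Each table is a selection: every row has a q below 0.05 and a log2 fold change beyond 1 in size, so a gene that is absent is unlisted and was not shown to be unchanged. All 5 tables held 7 of the 10, while NAC032 stood in 4, RD26 in 2 and NAC078 in 0.

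NAC proteins are plant transcription factors that share a DNA-binding domain at the N-terminus and differ in the rest of the chain. NAC013, NAC053 and NAC078 belong to the tethered members of the family, which are held in a membrane by a hydrophobic stretch near the C-terminus and reach the nucleus after they are cut free. NAC013, with its relative NAC017, carries the signal of impaired mitochondria to the nucleus and binds the mitochondrial dysfunction motif of genes such as the alternative oxidase AOX1A, while NAC053 and NAC078 control genes of proteasome subunits. ATAF1, ATAF2, NAC032 and NAC102 form the ATAF subfamily of soluble factors that respond to wounding, drought and toxic compounds. NAC019, NAC055 and RD26 form a subfamily induced by dehydration, abscisic acid and jasmonate.

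Whole seedlings of 5 lines were sequenced, 10 days old and in 3 libraries per group, 30 in all: wild type Col-0 (WT), the mutants snrk1a (snrk1a-2), jmj15 (jmj15-2) and crf6 (crf6-2), and a line that overexpresses SnRK1a (SnRK1aOX). Plants had grown on half-strength MS medium with 1% sucrose, and were then kept in liquid medium with 50 µM antimycin A for 5 h or mock-treated. Antimycin A stops electron flow through the cytochrome bc1 complex of mitochondria. SnRK1 is a protein kinase of energy shortage, JMJ15 a histone demethylase and CRF6 a cytokinin response factor, and the comparison asks whether they alter the response to impaired respiration. Each mutant is 1 allele and the overexpressor 1 line, and the promoter that drives its transgene is not given in the sources used here. KIN10 and KIN11, the catalytic subunits of SnRK1, JMJ15 and CRF6 stood in 0 of the 5 tables, so no targeted gene checked the labels of the lines. The values read as normalised read counts, by a method not given in the sources used here. Each table may have been scaled separately, and the depth of the libraries is unknown.

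The 10 genes lie on chromosomes 1, 3, 4 and 5 of TAIR10.1, the RefSeq build used here for positions and sequences. NAC013 is at chr1:11911631-11913947, NAC078 at chr5:1243684-1246684, ATAF1 at chr1:267993-269819, NAC053 at chr3:3271217-3274176, NAC055 at chr3:5234457-5236196 and NAC032 at chr1:29099839-29101759, all on the plus strand. ATAF2 is at chr5:2858849-2860558, NAC102 at chr5:25526509-25528281, NAC019 at chr1:19696923-19698482 and RD26 at chr4:13707192-13709170, all on the minus strand. The closest pairs in coding sequence were ATAF2 and NAC102 (81.7% of 798 aligned bases identical), NAC019 and NAC055 (80.4% of 927) and NAC053 and NAC078 (77.6% of 1632). ATAF1 followed with both NAC032 (75.4% of 747) and NAC102 (75.4% of 748). The lowest pair, NAC013 and NAC078, had 62.3%. Over all 45 pairs the longest identical run was 32 bases, in ATAF2 and NAC055, so no pair of members is a near-identical copy.

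In the 1000 bases before the annotated gene start, matches to the G-box, CACGTG, which reads the same on both strands, were found in 4 of the 10 genes, against 14.8% of 27443 nuclear protein-coding genes. The 4 were all 3 members of the NAC019 subfamily, with 4 matches in NAC019, 2 in RD26 and 1 in NAC055, and the ATAF gene NAC032 with 3. The as-1 type element TGACG, bound by TGA factors of the detoxification response, matched on either strand in 8 of 10 genes, against 54.1% of all. Both forms of the mitochondrial dysfunction motif were searched on both strands and matched in 0 of 10 genes, against 2.84% and 1.65% of all. CATGTG, a NAC recognition motif, matched in 2 (37.7% of all), TGGGC, the element of proteasome genes, in 4 (49.6%), and the W-box forms TTGACC and TTGACT in 2 (35.3%) and 6 (50.6%). A match describes these letters in this window and is no measured binding site. The stretches printed here are 120 bases long, 5′ to 3′ on the strand of the gene, with the match in capitals. They hold the G-box nearest to the gene start at chr1:19698546-19698665 (NAC019), chr3:5234061-5234180 (NAC055), chr4:13709533-13709652 (RD26) and chr1:29099719-29099838 (NAC032), because these are the 4 members with a G-box. The TGACG element nearest to the start, CGTCA where it lies on the other strand, is shown for NAC102 (chr5:25528308-25528427) and NAC053 (chr3:3271061-3271180), as the ATAF and the tethered member with this element close to the start that rose in all 5 lines.
NAC019: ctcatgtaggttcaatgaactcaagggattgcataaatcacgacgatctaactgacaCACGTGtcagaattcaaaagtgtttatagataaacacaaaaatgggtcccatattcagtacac
NAC055: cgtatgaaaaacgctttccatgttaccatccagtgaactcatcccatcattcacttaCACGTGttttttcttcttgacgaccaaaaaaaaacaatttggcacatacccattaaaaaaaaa
RD26: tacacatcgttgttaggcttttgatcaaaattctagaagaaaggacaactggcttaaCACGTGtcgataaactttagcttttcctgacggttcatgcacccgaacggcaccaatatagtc
NAC032: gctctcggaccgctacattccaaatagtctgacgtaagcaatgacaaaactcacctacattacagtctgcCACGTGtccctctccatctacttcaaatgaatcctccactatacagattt
NAC102: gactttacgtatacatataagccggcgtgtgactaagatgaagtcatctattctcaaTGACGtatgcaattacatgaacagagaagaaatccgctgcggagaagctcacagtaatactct
NAC053: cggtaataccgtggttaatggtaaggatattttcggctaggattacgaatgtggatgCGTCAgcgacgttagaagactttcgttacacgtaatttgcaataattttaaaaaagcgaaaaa

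Antimycin A raised NAC transcripts in each of the 5 lines, and no member was listed as lower in any table. In WT the authors' deposited table listed 9 of the 10 as higher, where 5.83% of the 23742 genes that the authors had tested were listed as higher. It was 8 of 10 in snrk1a, against 7.17%, 8 in jmj15, against 6.63%, 9 in crf6, against 6.97%, and 7 in SnRK1aOX, against 5.55%. The members were chosen with earlier results of these data known, so these counts describe the 10 genes and are no test of the family. Refitted with limma on log2(value + 1), 39 of the 41 listed changes passed an adjusted p of 0.05: 9 in WT (background 4.68% of genes tested), 9 in crf6 (5.61%), 8 in jmj15 (5.32%), 8 in snrk1a (5.97%) and 5 of 7 in SnRK1aOX (3.86%). Only genes already listed from these same libraries could be refitted, so a pass is no independent support, and unlisted genes could not pass. Of all genes listed as higher the refit passed 80.4% in WT, 80.5% in crf6, 80.2% in jmj15, 83.3% in snrk1a and 69.5% in SnRK1aOX. With 7 to 9 listed members per line, the members' counts are not shown to stand apart from these shares in any of the 5 lines. In all 41 cases the 3 treated libraries lay above the 3 mock libraries, which was also so for 96.7% of the genes listed as higher in WT, 95.8% in crf6, 97.8% in jmj15, 95.7% in snrk1a and 96.4% in SnRK1aOX. An exact permutation test of 3 against 3 libraries cannot go below p = 0.1, so single genes were tested in the fit across each table. Whether the 3 libraries of a group are separate cultures is not labelled, and the p-values reflect variation from library to library that may be only technical. In whole seedlings a change of transcript per cell and a change in the number of cells of a type cannot be told apart.

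**Figure D1:**
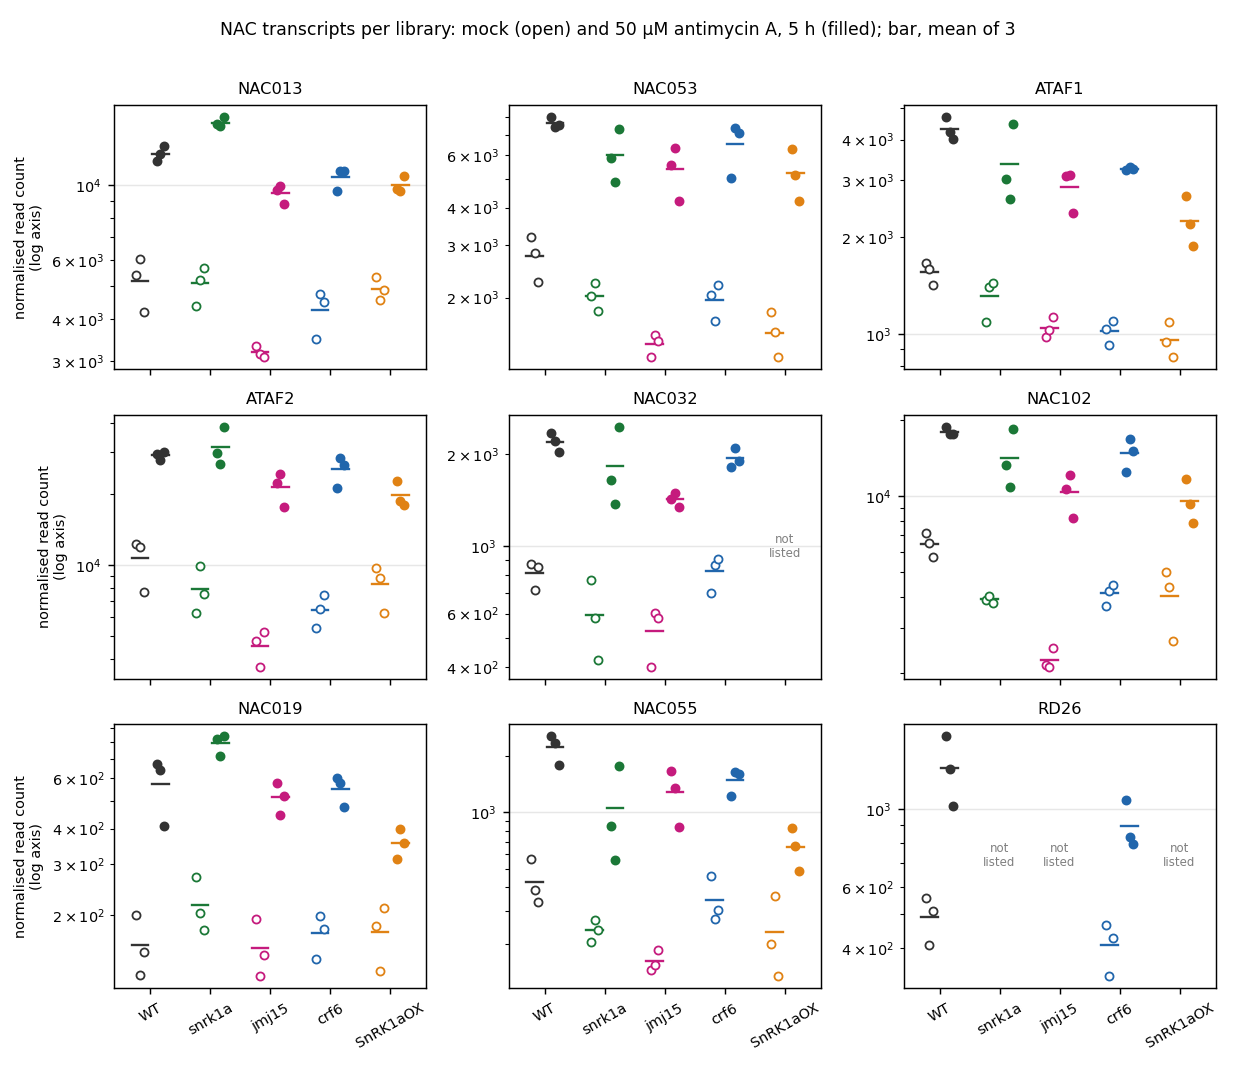
Normalised read counts (log axis) of the 9 listed NAC genes in every library, mock as open and antimycin A as filled points, with a bar at the mean of 3. In every panel and line the filled points lie above the open ones.

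The tethered factors NAC013 and NAC053 rose in all 5 lines. NAC013, the factor of mitochondrial signalling, stood in WT at 5389, 6019 and 4189.9 in the mock libraries and 11849, 12363 and 13122 in the treated libraries. All treated libraries lay above all mock libraries, a 2.39-fold difference of means and a log2 change of 1.27 ± 0.16 (SE, n = 3 per group, limma, adjusted p = 0.000883). In snrk1a NAC013 stood at 4376, 5236 and 5688 in the mock libraries and 15225, 14996 and 15969 in the treated libraries. In jmj15 it stood at 3317, 3131 and 3076 in the mock libraries and 9686, 9944 and 8819 in the treated libraries. The groups were far apart in both mutants, with log2 changes of 1.60 ± 0.16 and 1.58 ± 0.11 (limma, adjusted p = 0.000317 and 8.03e-05). In crf6 it stood at 3471, 4743 and 4504 in the mock libraries and 9627, 11072 and 11005 in the treated libraries. In SnRK1aOX it stood at 5348, 4539.8 and 4888 in the mock libraries and 9746, 9628 and 10689 in the treated libraries. Here too no treated library reached down to a mock library, and the changes were 1.33 ± 0.15 in crf6 and 1.03 ± 0.15 in SnRK1aOX (limma, adjusted p = 0.000685 and 0.00667). The last one lies just inside the authors' threshold, at a log2 fold change of 1.02 in the authors' deposited table.

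NAC053, a factor of the proteasome stress response, had in WT 3196, 2815 and 2262 in the mock libraries and 8018, 7439 and 7575 in the treated libraries. In SnRK1aOX it had 1792, 1531 and 1266 in the mock libraries and 6256, 5139 and 4205 in the treated libraries. The lowest treated library was above the highest mock library in both lines, with changes of 1.49 ± 0.16 in WT and 1.76 ± 0.20 in SnRK1aOX (limma, adjusted p = 0.000400 and 0.00397). It changed by 1.56 ± 0.19 in snrk1a, 1.92 ± 0.17 in jmj15 and 1.71 ± 0.18 in crf6, and all 3 passed (adjusted p = 0.000532, 0.000183 and 0.000576). NAC053 was the only one of the 7 members listed in SnRK1aOX whose refitted change there was above that in WT. NAC078, the closest relative of NAC053 by coding sequence, was in 0 of 5 tables and has no values. NAC013 shares 20 exon bases with its neighbour AT1G32880 on the opposite strand, and whether the counting used strand is not stated. AT1G32880 was itself listed as higher in all 5 tables, but at 10.3 to 49.9 in mock and 73.0 to 174 in treated libraries, far below NAC013.

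The ATAF subfamily rose as well, and ATAF2 and NAC102 moved much alike. ATAF2, a factor that responds to wounding, stood in WT at 12309.7, 11913 and 7706 in the mock libraries and 29427, 27867 and 30080.1 in the treated libraries. In jmj15 it stood at 4780.5, 3703 and 5171 in the mock libraries and 22225, 24260.0 and 17576 in the treated libraries. Mock and treated libraries did not overlap in either line, and the changes were 1.48 ± 0.20 in WT and 2.23 ± 0.17 in jmj15, a 2.74-fold and a 4.69-fold difference of means (limma, adjusted p = 0.00102 and 0.000115). In snrk1a it stood at 6251, 9844 and 7535 in the mock libraries and 29637, 26794 and 38407 in the treated libraries. In SnRK1aOX it stood at 9719.6, 8814 and 6242 in the mock libraries and 22553, 18698 and 17929.7 in the treated libraries. Treated replicate 3 was the highest in snrk1a and treated replicate 1 in SnRK1aOX, and the changes were 2.01 ± 0.22 and 1.27 ± 0.21 (adjusted p = 0.000396 and 0.0116). In crf6 ATAF2 rose by 1.98 ± 0.16 (adjusted p = 0.000228). ATAF2 shares 158 of its 1530 exon bases with AT5G08780 on the opposite strand, which was in 0 of 5 tables.

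NAC102, known for seed germination under low oxygen, stood in WT at 7158, 6537 and 5737 in the mock libraries and 18750.2, 17644 and 17489 in the treated libraries. In jmj15 it stood at 2154, 2119 and 2509 in the mock libraries and 10689, 12119.7 and 8195 in the treated libraries. The jmj15 mock libraries were close together, and the changes were 1.48 ± 0.14 in WT and 2.18 ± 0.16 in jmj15, a 2.77-fold and a 4.57-fold difference of means (limma, adjusted p = 0.000281 and 0.000103). In snrk1a NAC102 had 3878, 4040.4 and 3790.2 in the mock libraries and 13195, 10899 and 18449.8 in the treated libraries. In crf6 it had 3692, 4226 and 4449 in the mock libraries and 12387, 16811 and 15048 in the treated libraries. In SnRK1aOX it had 5001, 4379 and 2682 in the mock libraries and 11689.8, 9256 and 7812 in the treated libraries. The groups stayed apart in all 3 lines, with changes of 1.83 ± 0.20, 1.83 ± 0.15 and 1.28 ± 0.27 (adjusted p = 0.000416, 0.000199 and 0.0309). NAC102 shares 85 of its 1585 exon bases with SHA1 (AT5G63780) on the opposite strand.

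ATAF1, an activator of the abscisic acid synthesis gene NCED3, and its relative NAC032, a repressor of anthocyanin synthesis, stood lower than ATAF2 and NAC102. ATAF1 had in WT 1662, 1596 and 1424 in the mock libraries and 4688, 4232 and 4015 in the treated libraries, a rise of 1.47 ± 0.14. In crf6 it had 1037, 929.5 and 1099 in the mock libraries and 3210.1, 3282 and 3237 in the treated libraries, a rise of 1.67 ± 0.12 (limma, adjusted p = 0.000264 and 0.000147). The 3 treated crf6 libraries lay close together. ATAF1 rose by 1.33 ± 0.22 in snrk1a, 1.44 ± 0.15 in jmj15 and 1.21 ± 0.19 in SnRK1aOX (adjusted p = 0.00250, 0.000391 and 0.00857). Of its 1653 exon bases, 344 overlap an annotated lncRNA on the other strand, AT1G04043, which was in 0 of 5 tables. NAC032 had in WT 874, 716 and 853 in the mock libraries and 2341, 2202 and 2024 in the treated libraries, with no overlap and a rise of 1.43 ± 0.15 (adjusted p = 0.000375). It rose by 1.61 ± 0.28 in snrk1a, 1.44 ± 0.18 in jmj15 and 1.23 ± 0.15 in crf6, with adjusted p from 0.00101 to 0.00274, and was not listed in SnRK1aOX.

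In the subfamily of NAC019, NAC055 and RD26, NAC055 had the largest log2 fold change of all members in 4 of the 5 deposited tables. NAC055, a factor of jasmonate and dehydration responses, stood in WT at 567, 385 and 333 in the mock libraries and 2537, 2343 and 1799 in the treated libraries. In jmj15 it stood at 145, 154 and 184 in the mock libraries and 1661, 1343 and 841 in the treated libraries. Treated libraries exceeded mock libraries by a wide gap in both lines, with changes of 2.40 ± 0.23 and 2.94 ± 0.26 and 5.19-fold and 7.96-fold differences of means (limma, adjusted p = 0.000279 and 0.000202). In snrk1a it stood at 206, 267 and 237 in the mock libraries and 844, 559 and 1758 in the treated libraries. In crf6 it stood at 456, 272 and 302 in the mock libraries and 1229.8, 1647 and 1598 in the treated libraries. The snrk1a treated libraries were spread, with replicate 3 above the sum of the other 2, while those of crf6 lay closer, and the changes were 1.99 ± 0.37 and 2.14 ± 0.23 (adjusted p = 0.00400 and 0.000567). In SnRK1aOX it stood at 200.2, 357 and 134 in the mock libraries and 822, 666 and 487 in the treated libraries. The groups did not overlap there, but the lowest treated and the highest mock library were near each other, and the change of 1.59 ± 0.38 did not pass the refit (adjusted p = 0.0512), although the authors' deposited table gives a q of 4.41e-05.

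NAC019, the closest relative of NAC055, had the lowest counts of the listed members. In WT it stood at 199.9, 123 and 148 in the mock libraries and 672, 639 and 409 in the treated libraries, a rise of 1.86 ± 0.27 (limma, adjusted p = 0.00162). In SnRK1aOX it stood at 183, 127 and 212 in the mock libraries and 313, 400.0 and 356 in the treated libraries. There the lowest treated library lay above the highest mock library. The change of NAC019 in SnRK1aOX was 1.05 ± 0.25 and did not pass (limma, adjusted p = 0.0560), while the authors' deposited table gives a q of 0.00297. Counts of the 2 lines are not compared, since their tables may have been scaled separately. NAC019 rose by 1.89 ± 0.22 in snrk1a, 1.76 ± 0.23 in jmj15 and 1.68 ± 0.21 in crf6 (adjusted p = 0.000475, 0.00127 and 0.00112). RD26, a factor of abscisic acid-dependent drought signalling, was listed in WT and crf6 alone. It stood in WT at 555, 409.8 and 513 in the mock libraries and 1611, 1303 and 1021 in the treated libraries. In crf6 it stood at 466, 333 and 429 in the mock libraries and 1061, 834 and 794 in the treated libraries. No libraries overlapped, and RD26 rose by 1.40 ± 0.21 in WT and 1.13 ± 0.19 in crf6 (adjusted p = 0.00181 and 0.00574). In the other 3 lines it was unlisted and has no values, which is no test of a difference.

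The calls in SnRK1aOX depended on single libraries. Without treated replicate 1 the refit passed 3 of 7 members and without treated replicate 2 it passed 2, NAC013 and NAC053. ATAF1 was lost without treated replicate 2, ATAF2 without treated replicate 1 or 2, and NAC102 in 5 of the 6 fits that left out 1 library, all but that without mock replicate 1. In those fits the change of ATAF1 ranged from 1.08 to 1.33, that of ATAF2 from 1.08 to 1.40 and that of NAC102 from 1.01 to 1.46. NAC055 in SnRK1aOX passed without mock replicate 2, at 1.97 (limma, adjusted p = 0.0197; 0.0197 to 0.246 over the 6 fits).

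**Figure D2:**
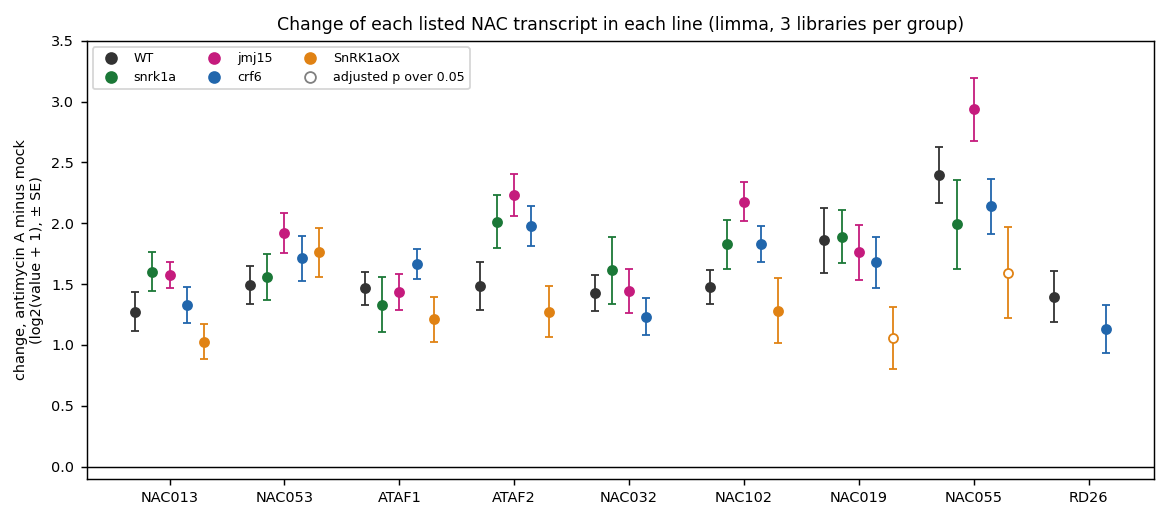
Change of each listed NAC gene in each line, as the difference of log2(value + 1) between antimycin A and mock with its standard error (limma, 3 libraries per group), open where the adjusted p was over 0.05. NAC055 in jmj15 stands highest, at 2.94, and 6 of the 7 members listed in SnRK1aOX, all but NAC053, have their smallest change there.

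Per length of transcript, the order of the levels was much the same in every line, with ATAF2, NAC102 and NAC013 at the top. In WT mock seedlings the count per kilobase of the longest annotated transcript was 6956 ± 1667 (SD, n = 3) for ATAF2, 4918 ± 541 for NAC102, 2709 ± 484 for NAC013, 1095 ± 187 for NAC053 and 944 ± 74.2 for ATAF1. It was 471 ± 49.5 for NAC032, 278 ± 79.6 for NAC055, 276 ± 41.9 for RD26 and 115 ± 28.9 for NAC019. ATAF2 overlapped NAC102, NAC053 overlapped ATAF1 and NAC055 overlapped RD26 in their mock libraries, and the other neighbours in this order did not overlap. With antimycin A ATAF2 stood at 19036 ± 743 per kilobase, NAC102 at 13638 ± 522, NAC013 at 6485 ± 334 and NAC055 at 1444 ± 248. NAC055, level with RD26 in mock, then lay above RD26 and overlapped NAC032 (1265 ± 91.9), the only overlapping neighbours in the treated WT libraries. In jmj15 mock seedlings NAC055 was the lowest listed member, at 104 ± 13.3 per kilobase and overlapping NAC019 (112 ± 26.6), and with antimycin A it stood at 831 ± 268, overlapping NAC032 (819.6 ± 45.1).

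**Figure D3:**
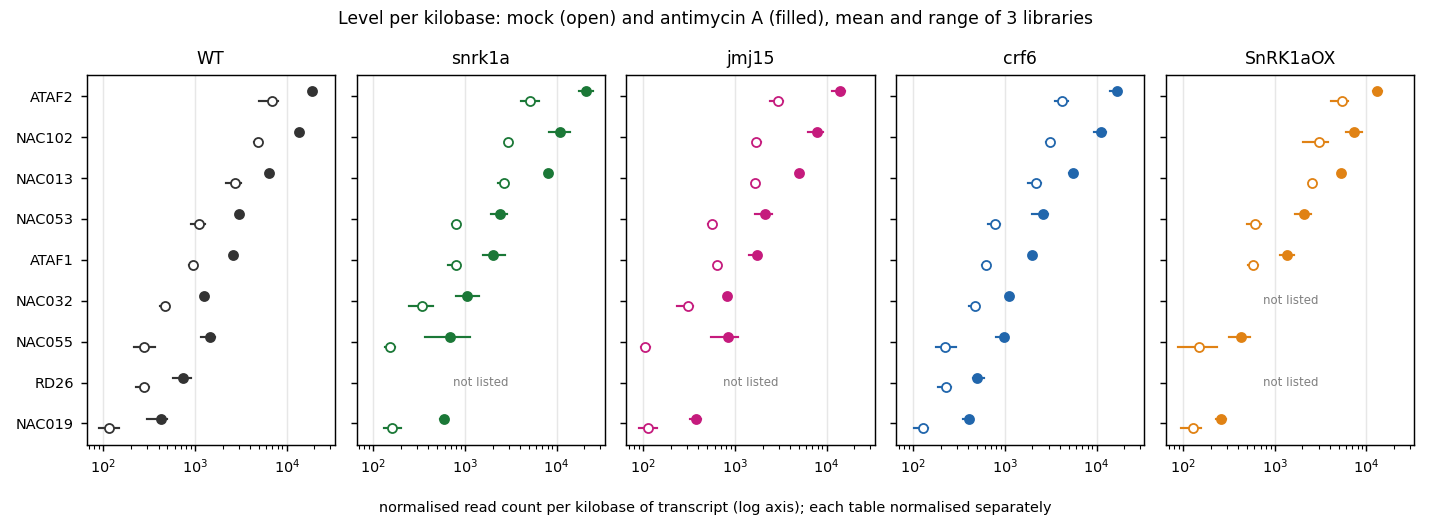
Normalised read count per kilobase of the longest transcript (log axis) of each listed member, mean of 3 mock (open) and 3 treated (filled) libraries with a line from the lowest to the highest. Tables may have been normalised separately, so levels are to be read within a panel. ATAF2 leads in each panel, at 6956 per kilobase in mock WT and 19036 in treated WT.

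Among the members listed in both tables of a pair, no change differed between lines past the threshold. A member unlisted in either table has no test, as NAC032 in SnRK1aOX, RD26 in snrk1a, jmj15 and SnRK1aOX, and NAC078 in any line. A change listed in only a single line of a pair therefore could not be compared. Of 39 differences between 2 changes, fitted with limma on the genes common to a pair of tables, 0 passed an adjusted p of 0.05 and 5 had an unadjusted p under 0.05. These 5 were 2 of 8 members in jmj15 minus WT, where 14.2% of the common genes had such a p, and 3 of 7 in SnRK1aOX minus snrk1a (10.0%). They were 0 of 8 in snrk1a minus WT (7.54%), 0 of 9 in crf6 minus WT (4.51%) and 0 of 7 in SnRK1aOX minus WT (9.67%). In jmj15 minus WT, where 1.65% of 2057 genes passed above 0 and 0.583% below, the largest differences among the 8 members were those of ATAF2, 0.75 ± 0.28 (95% interval 0.15 to 1.35, adjusted p = 0.203), and NAC102, 0.70 ± 0.21 (95% interval 0.24 to 1.17, adjusted p = 0.11998). ATAF2 passed without WT mock replicate 3, its lowest mock library, at 0.97 (adjusted p = 0.0252; 0.0252 to 0.401 over the 12 fits that left out 1 library). NAC102 passed without jmj15 treated replicate 3, at 0.86 (adjusted p = 0.0308; 0.0308 to 0.284). NAC055 differed by 0.54 ± 0.37 (95% interval -0.25 to 1.33) and ATAF1 by -0.03 ± 0.19 (95% interval -0.45 to 0.39). The median difference of the 8 members was 0.37, beside 0.23 over the 975 genes listed as higher in both tables.

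The other mutants gave smaller differences. In snrk1a minus WT and in crf6 minus WT 0.00% of the 2440 genes of each comparison passed in either direction. The widest departures were ATAF2 in snrk1a, 0.53 ± 0.32 (95% interval -0.15 to 1.21), NAC055 in snrk1a, -0.40 ± 0.48 (95% interval -1.42 to 0.62), and ATAF2 in crf6, 0.50 ± 0.27 (95% interval -0.08 to 1.08). These 3 intervals include 0 and reach past 1 in size, so they do not show that the lines respond alike.

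SnRK1aOX had smaller changes than WT in 6 of 7 members, and than snrk1a in 6 of 7. In SnRK1aOX minus WT 0.0654% of 1530 genes passed in each direction. NAC019 differed by -0.80 ± 0.38 (95% interval -1.64 to 0.03, adjusted p = 0.527) and NAC055 by -0.80 ± 0.47 (95% interval -1.83 to 0.22, adjusted p = 0.652), while NAC053 differed by 0.27 ± 0.26 (95% interval -0.30 to 0.84). In SnRK1aOX minus snrk1a, the lines labelled as overexpressor and mutant of SnRK1a, 0.0635% of 1575 genes passed above 0 and 0.00% below. NAC013 differed by -0.58 ± 0.21 (95% interval -1.03 to -0.12), ATAF2 by -0.74 ± 0.32 (95% interval -1.44 to -0.03) and NAC019 by -0.83 ± 0.33 (95% interval -1.56 to -0.11). Each of these 3 intervals lies below 0 unadjusted, and each has an adjusted p of 0.485. The members' median difference was -0.25 from WT and -0.54 from snrk1a, beside 0.07 over 873 and -0.11 over 902 genes listed as higher in both tables. The differences from WT all use the same WT libraries, and both of those of SnRK1aOX use the same SnRK1aOX libraries.

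**Figure D4:**
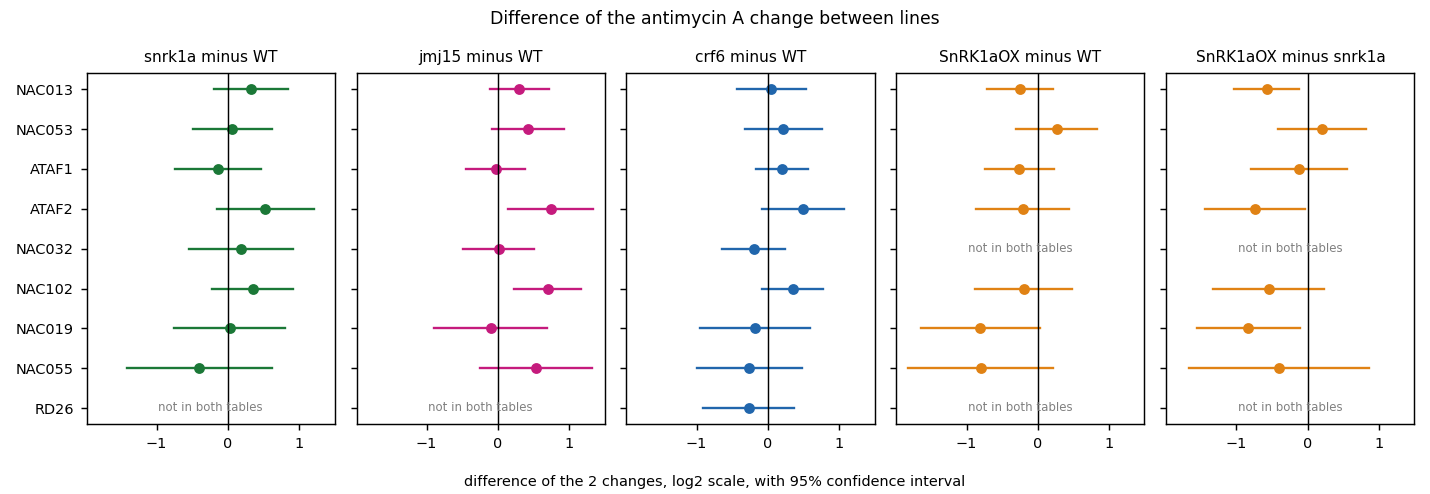
Difference of the antimycin A change between 2 lines for each member listed in both tables, on the log2 scale, with its 95% confidence interval (limma). The intervals of ATAF2 and NAC102 lie above 0 in jmj15 minus WT and those of NAC013, ATAF2 and NAC019 below 0 in SnRK1aOX minus snrk1a, and 0 of the 39 passed after adjustment.

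Outside SnRK1aOX the size of the members' responses lay near that of other responding genes, while in SnRK1aOX most members lay low among them. In WT the median log2 fold change of the 9 listed members in the authors' deposited table was 1.47, and that of the 1383 genes listed as higher was 1.498. The 2 medians were 1.74 and 1.55 in snrk1a, 1.84 and 1.71 in jmj15, 1.68 and 1.51 in crf6, and 1.25 and 1.55 in SnRK1aOX. NAC055 lay above 81.9% of the higher genes in WT and 85.3% in jmj15, and NAC013 above 29.2% in WT and 3.65% in SnRK1aOX. The others in SnRK1aOX were NAC019 at 4.64%, ATAF1 at 24.8%, NAC102 at 27.7%, ATAF2 at 27.9%, NAC055 at 47.6% and NAC053 at 61.2%. The members' median mock mean in WT was 1561, against 256 over all genes listed as higher, a comparison of counts that are not per length, and NAC019 stood below the latter at 157.

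**Figure D5:**
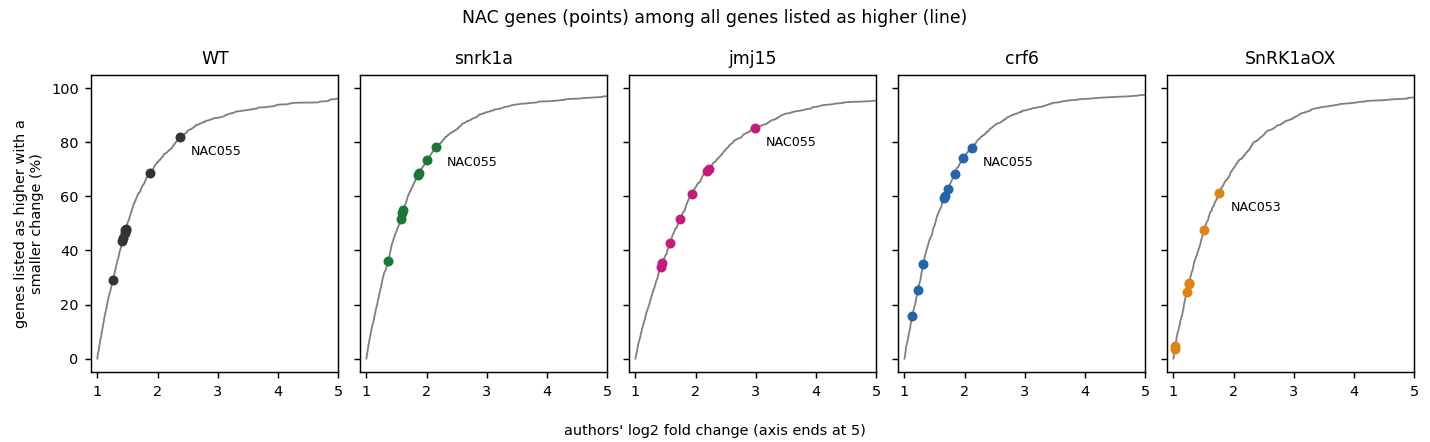
Share of the genes listed as higher in each table that have a smaller log2 fold change than the value on the x axis (line), with the members as points; the axis ends at 5. The largest member, NAC055 in 4 lines and NAC053 in SnRK1aOX, is named and lies at 81.9% in WT and 61.2% in SnRK1aOX.

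Genes with a response pattern like that of a member were found among the 1125 genes listed in all 5 tables, by the Euclidean distance between the 5 log2 fold changes, as a description over 5 lines. The gene nearest to ATAF2 was NAC102, and the gene nearest to NAC102 was ATAF2, at a distance of 0.20. The median distance of all genes was 2.29 from ATAF2 and 2.36 from NAC102. Of the 1125 genes, 660 were higher in every line, so these medians do not describe genes that rose alone. The others near ATAF2 were FRB1 (AT5G01100) at 0.29 and AT4G01870 at 0.36, and those near NAC102 were UGT71B6 (AT3G21780), a glycosyltransferase, at 0.29 and DFD (AT3G55630) at 0.30. Nearest to NAC013 were ASB1 (AT1G25220) at 0.12, AT4G38540 at 0.13 and WRKY15 (AT2G23320) at 0.15, where ASB1 encodes a subunit of anthranilate synthase and WRKY15 a transcription factor. Nearest to NAC053 were XTH30 (AT1G32170) at 0.19, WRKY26 (AT5G07100) at 0.24 and AT4G17250 at 0.28, and nearest to ATAF1 AT4G25690 at 0.21, GSTF2 (AT4G02520) at 0.24 and AT4G29950 at 0.24, where GSTF2 is a glutathione transferase. Nearest to NAC019 were AOC1 (AT3G25760) at 0.35, JAZ5 (AT1G17380) at 0.40 and NUDT4 (AT1G18300) at 0.46, where AOC1 is an enzyme of jasmonate synthesis and JAZ5 a repressor of jasmonate signalling. Nearest to NAC055 were RVE2 (AT5G37260) at 0.43, ERF-1 (AT4G17500) at 0.60 and AT4G18950 at 0.61, where ERF-1 is an ethylene response factor.

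In some groups most members stood high or low in the same library. Treated replicate 3 of snrk1a was the highest for all 8 listed members and treated replicate 2 the lowest for all 8, where 72.4% and 57.8% of all genes listed as higher in snrk1a had these as highest and lowest. In WT mock replicate 1 was the highest for 8 of 9 members (64.9% of higher genes), and in jmj15 treated replicate 3 was the lowest for 7 of 8 (65.9%). In crf6 treated replicate 2 was the highest for 7 of 9 (58.1%), and in SnRK1aOX treated replicate 1 for 5 of 7 (65.3%). In the mock groups of snrk1a and jmj15 no library was the highest or the lowest for more than 4 of 8 members, and in crf6 mock none for more than 5 of 9.

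Most of the other NAC genes were unlisted, as were most of all genes tested. Of 105 further genes that RefSeq annotates as NAC family, 3 were listed as higher and 11 as lower in WT, 6 and 4 in jmj15, 5 and 6 in crf6, 11 and 11 in snrk1a, and 5 and 4 in SnRK1aOX. Of all genes tested 8.84% were listed as lower in WT, 6.04% in jmj15, 7.71% in crf6, 10.1% in snrk1a and 3.67% in SnRK1aOX. The shares listed as higher are those given with the members. Of 26 NAC genes of stress, senescence or membrane tethering, the senescence factor NAC029 (AT1G69490, also NAP) was higher in all 5 tables. It stood in WT at 441 ± 28.4 in mock and 1015 ± 142 in treated libraries (mean ± SD, n = 3), and rose by 1.19 ± 0.17 in WT, 1.87 ± 0.35 in jmj15, 1.83 ± 0.24 in crf6, 1.33 ± 0.28 in snrk1a and 1.22 ± 0.29 in SnRK1aOX (limma, adjusted p from 0.00134 to 0.0497). NAC047 (AT3G04070) rose in snrk1a (1.19 ± 0.14) and jmj15 (1.03 ± 0.12), NAC061 (AT3G44350) in snrk1a (3.69 ± 0.99) and crf6 (3.98 ± 0.60), from very low mock means of 3.59 and 0.327, and the tethered NAC016 (AT1G34180) in snrk1a (1.04 ± 0.21). NAC096 (AT5G46590) fell in WT (-1.70 ± 0.47, adjusted p = 0.0493). NAC071 (AT4G17980) in snrk1a, at 1.63 ± 0.67, and NAC090 (AT5G22380) in jmj15, at -2.48 ± 0.81, did not pass (adjusted p = 0.218 and 0.135). NAC017, the partner of NAC013 in mitochondrial signalling, was unlisted in all 5.

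Of 16 regulators and partners of these factors, among them RCD1, which binds NAC013, the jasmonate factor MYC2, the TGA factors and the kinases KIN10 and KIN11, 1 was listed in each line. It was SRO5 (AT5G62520), a relative of RCD1, which rose by 1.35 ± 0.27 in WT, 1.24 ± 0.22 in jmj15, 1.34 ± 0.31 in crf6, 1.89 ± 0.19 in snrk1a and 1.11 ± 0.21 in SnRK1aOX (limma, adjusted p from 0.000309 to 0.0250).

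Among genes known downstream of the tethered factors, most of those of mitochondrial dysfunction were listed as higher in WT and those of the proteasome were unlisted. Of 10 mitochondrial dysfunction genes 6 rose in WT, 7 in crf6, 7 in jmj15, 8 in snrk1a and 5 in SnRK1aOX, all past the refit, and 0 were listed as lower. The median log2 fold change of the listed ones in the authors' deposited tables was 1.48, 1.62, 2.08, 1.95 and 1.54 in that order, beside 1.498, 1.51, 1.71, 1.55 and 1.55 over all genes listed as higher. Beside the counts stand the shares of all genes listed as higher, and of these past the refit, given with the members. Over the 5 lines the rise of UGT74E2 (AT1G05680), a glycosyltransferase, ranged from 1.95 ± 0.19 in WT to 3.93 ± 0.20 in jmj15, that of the sulfotransferase SOT12 (AT2G03760) from 1.95 ± 0.19 in WT to 3.07 ± 0.15 in jmj15, and that of the auxin transporter ABCB4 (AT2G47000) from 1.58 ± 0.24 in SnRK1aOX to 2.26 ± 0.20 in snrk1a. Of 20 proteasome subunit genes, the known targets of NAC053 and NAC078, 0 were listed in any of the 5 tables, so that a change past the authors' thresholds was not called and smaller changes have no values.

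Genes known downstream of ATAF1, NAC019, NAC055 and RD26 were listed in both directions. Beside the counts stand the shares of all genes listed as higher, given with the members, and as lower, given with the NAC family. Of 9, 4 were listed as higher and 1 as lower in WT, 4 and 0 in jmj15, 5 and 1 in crf6, 5 and 1 in snrk1a, and 3 and 0 in SnRK1aOX. All of these passed the refit except the lower one in crf6, VSP1 (AT5G24780), a jasmonate-induced storage protein, at -1.92 ± 0.53 (adjusted p = 0.0598). VSP1 fell in WT (-2.12 ± 0.50) and in snrk1a (-2.40 ± 0.40). Over the 5 lines the rise of ABCG40 (AT1G15520), a transporter of abscisic acid, ranged from 2.97 ± 0.19 in crf6 to 5.00 ± 0.29 in jmj15, and that of LOX2 (AT3G45140), an enzyme of jasmonate synthesis, from 1.02 ± 0.19 in crf6 to 2.30 ± 0.25 in WT.

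Several root markers were listed as lower in each line. Of 9 markers of root hairs and endodermis, 7 were listed as lower in WT, 5 in jmj15, 7 in crf6, 7 in snrk1a and 3 in SnRK1aOX, and 5, 1, 7, 7 and 0 of them passed the refit. The shares of all genes tested that were listed as lower are those given with the NAC family, and of the genes listed as lower the refit passed 73.5% in WT, 64.6% in jmj15, 65.7% in crf6, 81.8% in snrk1a and 62.9% in SnRK1aOX. The summed count of the listed markers was 1828 to 5209 in mock and 819.5 to 1065 in treated WT libraries, 2157 to 3358 and 372 to 630.0 in snrk1a, and 556 to 1628 and 172 to 419 in jmj15. It was 2505 to 3815 and 691 to 955 in crf6, and 390.5 to 1228 and 172 to 424.8 in SnRK1aOX, where mock and treated sums overlapped. Every marker in these sums had been listed as lower, so a lower treated sum follows from that selection. The markers summed also differ between lines, so the sums do not compare lines. No listed root marker was at 0 in any library. Of 7 markers of green shoots, LHCB2.1 (AT2G05100) was listed, in SnRK1aOX alone, and rose there by 1.01 ± 0.17 (limma, adjusted p = 0.0111). The part of these shifts in the NAC results was not tested.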

How the data were processed

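Whole-seedling RNA was sequenced in 30 libraries, 10 groups of 3 named from the sample titles. Reads were aligned with Bowtie 0.12.2 to TAIR10, per the submitters' processing notes, and how they were counted, normalised and tested is not given in the sources used here. Each of the 5 deposited tables gives a signal per library, read from the values as a normalised read count, the authors' log2 fold change, and p-values and q-values; the −log10 q that the authors deposited in 2 tables was not used. Columns named kin10-2 and KIN10V17 were taken as snrk1a and SnRK1aOX, because KIN10 is another name for SnRK1a, a match no label spells out. The ratio of q to p and rank gave the number of genes tested.

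log2(value + 1) was fitted per table with limma 3.58.1 (R 4.3.3), moderated with trend, two-sided, and adjusted by Benjamini-Hochberg over the number tested; differences between lines were fitted over genes in both tables and adjusted over these. Fits were tested on simulated data. The members, lists and named genes (all members, listed NAC genes and partners, the 3 largest in WT of other lists, 3 nearest patterns per member) were chosen with earlier results of these data known. Coding sequences were aligned with Biopython 1.88. Alternatives were the pseudocount, a filter, moderation, the adjustment, stricter thresholds, leaving out 1 library and the replicate number as a block. Few libraries and unknown depth limit precision.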

Additional observations from a re-analysis of the deposited data

How the results depend on the processing

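Of 246 refits of the 41 single changes under other settings, 246 kept their direction and 241 their call. The exceptions were in SnRK1aOX: without trend NAC102 was lost (adjusted p = 0.0732), and NAC055 passed with a pseudocount of 5 (0.0481) or adjusted over the listed genes (0.00472), as NAC019 did (0.00516). With the replicate number as a block NAC055 in SnRK1aOX passed as well, at 1.59 (limma, adjusted p = 0.0483), which moved the count there from 5 to 6 and no other call. Same-numbered treated and mock libraries showed no strong shared deviation (correlations from -0.36 to 0.11), and those of unlike number ran from -0.36 to 0.46. With 3 libraries per group these correlations cannot decide whether the numbers pair the libraries. A log2 fold change over 1.5 in the authors' deposited tables left 2 of 9 members in WT and 2 of 7 in SnRK1aOX. Leaving out 1 library left 2 to 5 members past the refit in SnRK1aOX, and 0 to 1 whose change differed in jmj15 minus WT.

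Of the 39 differences between lines, 11 changed sign when 1 library was left out, none of which had passed. They ranged in snrk1a minus WT from -0.084 to 0.21 for NAC053, from -0.20 to 0.20 for NAC019, from -0.053 to 0.40 for NAC032 and from -0.36 to 0.029 for ATAF1. In jmj15 minus WT they ranged from -0.17 to 0.12 for NAC032, from -0.33 to 0.080 for NAC019 and from -0.097 to 0.10 for ATAF1, in crf6 minus WT from -0.084 to 0.20 for NAC013, in SnRK1aOX minus WT from -0.40 to 0.0086 for ATAF2, and in SnRK1aOX minus snrk1a from -0.28 to 0.10 for ATAF1 and from -0.77 to 0.052 for NAC055. The cause was not tested.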

Other observations

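Levels of the members can be set side by side across lines as a description only, since the tables may have been normalised separately. In mock jmj15 seedlings all 7 members listed in every table had a lower mean count than in mock WT, by a log2 ratio from -1.52 for NAC102 (2261 against 6477) and -1.41 for NAC055 (161 against 429) to -0.036 for NAC019 (153 against 157). The median ratio was -0.49 over the 1125 genes listed in all 5 tables and -0.61 over the 660 of them that were higher in every line. In the treated libraries the ratio of jmj15 to WT was -0.80 for NAC102, -0.80 for NAC055 and -0.45 for ATAF2, whose mock ratio was -1.23, beside a median of -0.25 over the 1125 genes and -0.27 over the 660. In mock SnRK1aOX seedlings the ratio to WT was -0.89 for NAC055, -0.85 for NAC053, -0.69 for ATAF1, -0.69 for NAC102, -0.37 for ATAF2, -0.078 for NAC013 and 0.15 for NAC019, beside a median of -0.52, so that 4 of the 7 lay below it. In the treated libraries it was -1.76 for NAC055, -0.94 for ATAF1, -0.91 for NAC102, -0.68 for NAC019, -0.56 for ATAF2, -0.56 for NAC053 and -0.31 for NAC013, beside -0.34. Over the 660 genes higher in every line, the median ratio of SnRK1aOX to WT was -0.65 in mock and -0.54 in treated libraries.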
